A study of Homo sapiens with 6 samples.

Results

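The genes described here are 36 enzymes, subunits and carriers that bring pyruvate into the mitochondrion and run the tricarboxylic acid (TCA) cycle, chosen by symbol from a list of the pathway's genes. All 36 are found by their Ensembl gene identifiers among the 58395 genes of the RNA-seq tables, and all 36 pass the filter on low counts that leaves 15566 genes for testing. The cells are HCT116, an established human colorectal carcinoma line, infected with a lentivirus that carries a non-target hairpin (shControl) or a hairpin against STBD1 (shSTBD1), and selected with puromycin. STBD1 is the receptor that tethers glycogen to autophagosome membranes, and the study asks how gene expression differs once it is depleted. Each group has 3 libraries labelled as biological replicates, grown in the same serum-supplemented medium, and each rests on a single hairpin sequence in a selected population. No rescue or second hairpin is analysed here.

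Pyruvate made by glycolysis enters mitochondria through a carrier of MPC1 and MPC2. The pyruvate dehydrogenase complex turns it into acetyl-CoA, under the control of kinases that switch the complex off and phosphatases that switch it on, while pyruvate carboxylase turns it into oxaloacetate instead. Citrate synthase joins acetyl-CoA and oxaloacetate, the cycle oxidizes citrate back to oxaloacetate, and glutamate, aspartate and malate enter or leave it through dehydrogenases, transaminases and malic enzymes, several of which exist in a mitochondrial and a cytosolic form.

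The libraries hold 17689097 to 21668274 expected counts each. STBD1 is reduced but still detected, from 15.4 ± 0.90 to 9.94 ± 1.43 CPM (counts scaled to library size with TMM, mean ± SD, n = 3). Its log2 fold change is -0.64 (edgeR adjusted p = 0.000291). STBD1 shares exon bases with FAM47E-STBD1 on the same strand. The posterior standard deviation that RSEM gives for reads shared between genes is 8.37% of the STBD1 count, against at most 0.567% for the 36 genes. Of 8 colorectal epithelial markers, 6 are tested and 5 of these are called higher in shSTBD1 (CDH1, KRT8, KRT18, KRT19 and CLDN4), as are 8.22% of all tested genes. EPCAM is tested and not called (log2 fold change 0.04, edgeR adjusted p = 0.422). VIL1 and LGALS4 have 6 or fewer counts in each library. The summed level of the list is 3436 to 3669 CPM in shControl and 4077 to 4157 CPM in shSTBD1. The leukocyte list sums to 8.67 to 10.7 CPM and 13.5 to 14.2 CPM, nearly all of it CD68, which is called higher, with no count for PTPRC or CD3E. The fibroblast list sums to 30.9 to 39.1 CPM and 36.7 to 40.5 CPM, nearly all of it COL1A1, which is not called, and the endothelial list to no more than 1.71 CPM. The part of these markers in the values below was not tested. These are bulk samples, in which fewer expressing cells and less RNA per cell cannot be told apart.

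On the scale of TPM, which is per transcript length and so can be set side by side between genes, the 36 genes span a 34.4-fold range and together make up 0.283% of all transcripts. PDP1, a phosphatase that reactivates pyruvate dehydrogenase, is the most abundant, at a mean of 354.5 TPM over the 6 libraries (range 340.5 to 366.2). No library of another listed gene reaches this range. The malate dehydrogenases MDH2 (189.7 TPM) and MDH1 (185.6 TPM) come next, and their ranges overlap. PDHA1 (159.6 TPM), DLD (155.3 TPM) and CS (152.3 TPM) follow with overlapping ranges, and then SDHC (126.9 TPM) and SDHB (126.4 TPM). The lowest levels are those of MPC1 (17.5 TPM), PC (10.6 TPM) and PDP2 (10.3 TPM), and each of these overlaps its neighbour in the order. PDP1 is thus 34.3 times as abundant as PDP2, the other phosphatase of the same complex.

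**Figure D1:**
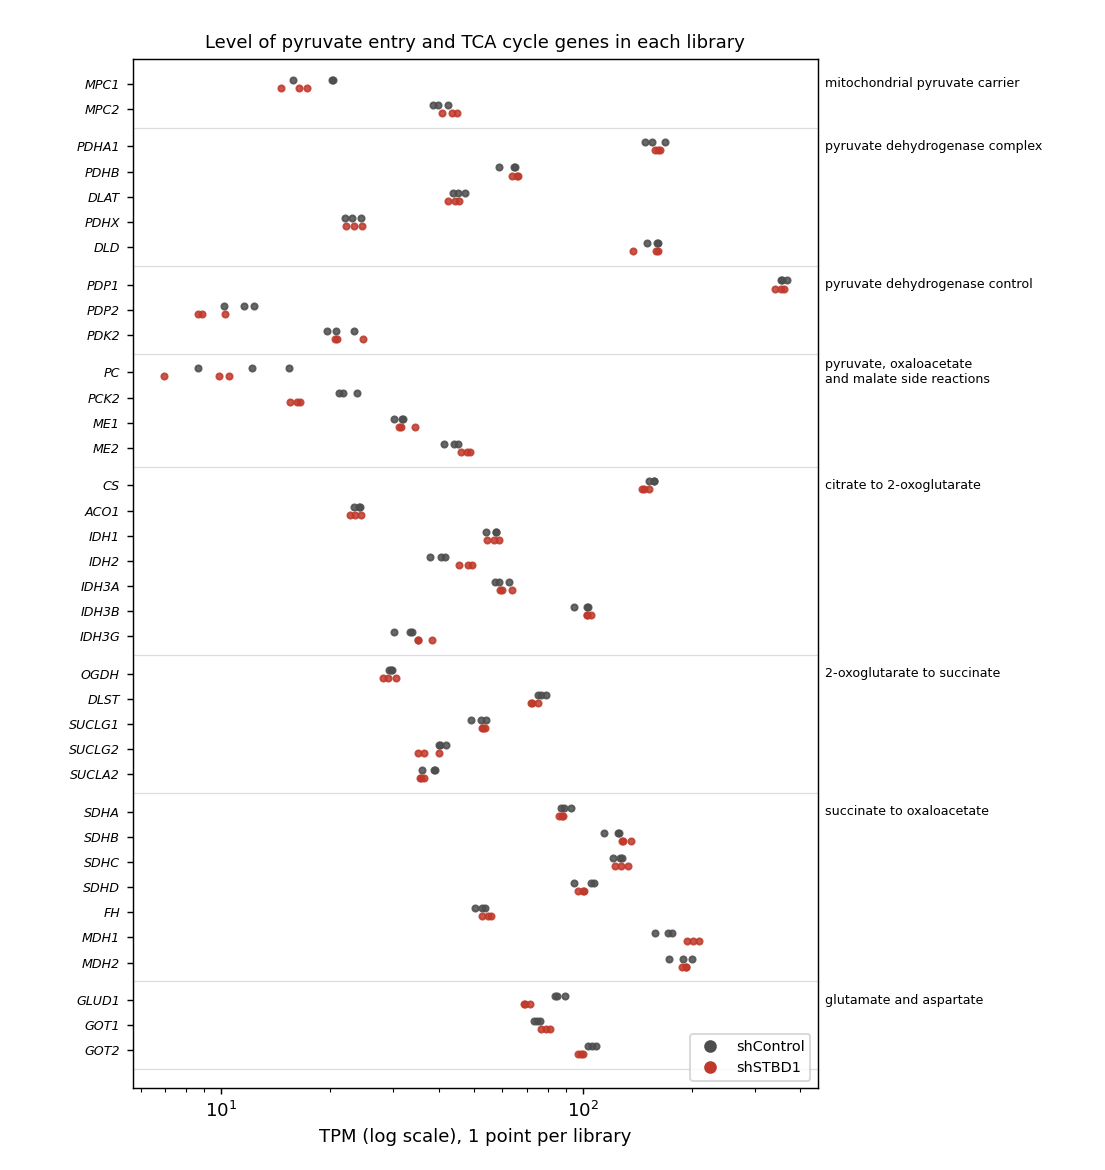
The horizontal axis gives TPM on a log scale, with 1 point for each of the 3 shControl (grey) and 3 shSTBD1 (red) libraries, and the genes are ordered by role. PDP1 lies apart on the right, above 340.5 TPM in every library, and PC spreads from 6.95 to 15.4 TPM.

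Between shSTBD1 and shControl, 6 of the 36 genes pass an adjusted p of 0.05 in edgeR's quasi-likelihood test, or 16.7%, against 15.8% of all 15566 tested genes. MDH1, IDH2 and ME2 rise (3 genes, against 8.22% of all tested genes), and PCK2, GLUD1 and PDP2 fall (3 genes, against 7.54%). At an unadjusted p under 1e-5, 3 remain (PCK2, GLUD1 and MDH1), against 2.38% of all tested genes. The median log2 fold change over the 36 genes is 0.0085, against 0.0023 over all tested genes, and the median size of the change without its sign is 0.069 on the log2 scale, against 0.11. In 23 of the 36 genes the estimate is smaller than 0.1 in either direction. The CPM ranges of the groups do not overlap for 20 genes (55.6%, with 12 higher and 8 lower in shSTBD1), against 33.6% of all tested genes (17.4% higher and 16.3% lower). The listed genes are also more deeply counted, with a median of 1790 counts per library against 443.8. The summed TPM of all 36 genes is 2826 ± 76.9 in shControl and 2842 ± 35.4 in shSTBD1, a difference of 0.559% with overlapping libraries, which turns to -0.989% without shControl replicate 1 and to -0.155% without shSTBD1 replicate 1.

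**Figure D2:**
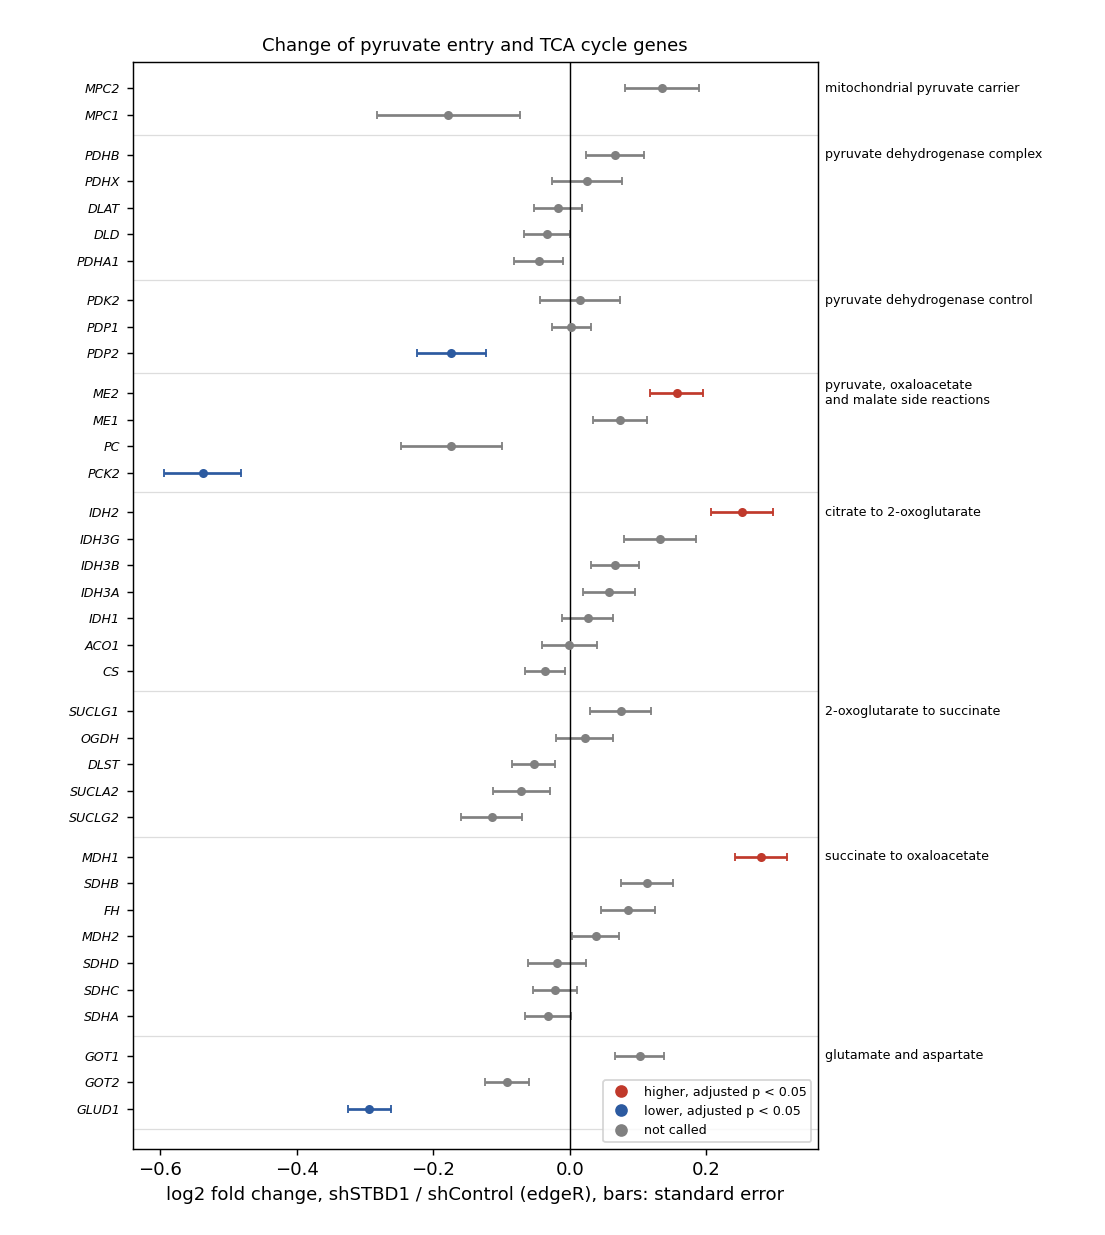
Points are log2 fold changes of shSTBD1 over shControl from edgeR, bars are standard errors, and red or blue marks genes called higher or lower at an adjusted p under 0.05. The 3 red points are MDH1, IDH2 and ME2, the 3 blue points are PCK2, GLUD1 and PDP2, and PCK2 lies farthest from 0 at -0.54.

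Pyruvate entry shows no called change. Of the carrier genes, MPC2 has an estimate of 0.14 on the log2 scale (standard error 0.054, edgeR adjusted p = 0.0997) and MPC1 one of -0.18 (standard error 0.11, edgeR adjusted p = 0.279). MPC2 is called in 1 of 16 other fits, that without shControl replicate 1 (edgeR adjusted p = 0.0225). MPC1 is the least counted gene of the list, with a mean of 201.3 counts per library, and its groups overlap. Of the 5 genes of the pyruvate dehydrogenase complex, 0 are called in edgeR, 0 also have an unadjusted p under 0.05, and DESeq2 and limma call 0 of them. PDHA1, the catalytic alpha subunit, is at 102.3 ± 2.20 CPM in shControl and 99.1 ± 2.44 CPM in shSTBD1 (log2 fold change -0.045, edgeR adjusted p = 0.431). Its sign turns, to 0.046 (edgeR adjusted p = 0.695), once effective lengths enter as offsets, and with a correction for the trend on gene length it is -0.10 (edgeR adjusted p = 0.0374). PDHA1 shares exon bases with MAP3K15 on the opposite strand. MAP3K15 has 4.84 CPM in shControl and 2.26 CPM in shSTBD1 (edgeR adjusted p = 0.000363). PDHB, the beta subunit, DLAT, the transacetylase core, DLD, a dehydrogenase of the complex, and PDHX, a structural subunit, have estimates between -0.033 and 0.066. DLD shares exon bases with LAMB1 on the opposite strand. LAMB1 has 55.75 CPM in shControl and 67.36 CPM in shSTBD1 (edgeR adjusted p = 0.000526).

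Of the 3 genes that control the complex, 1 is called. PDP2 has 38.2, 39.8 and 37.8 CPM in shControl and 35.1, 33.3 and 34.4 CPM in shSTBD1. Every shSTBD1 library is below every shControl library, a change of -11.3% (log2 fold change -0.17, standard error 0.050, edgeR adjusted p = 0.0272). The call holds in 7 of 16 other fits. It is lost with DESeq2 (adjusted p = 0.085), with limma on log2(TPM + 1) (adjusted p = 0.229) and with effective length as an offset (edgeR adjusted p = 0.133). A correction for the trend on gene length also loses it, without or with the replicate number as a block (edgeR adjusted p = 0.0579 and 0.0683). So does leaving out any 1 of shControl replicates 2 and 3 or shSTBD1 replicates 2 and 3 (edgeR adjusted p from 0.0502 to 0.124). PDP1 is at 972 ± 11.9 and 974 ± 9.63 CPM, and PDK2, a kinase that inactivates the complex, has a log2 fold change of 0.015 (edgeR adjusted p = 0.906).

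The reactions that link pyruvate, malate and oxaloacetate outside the main cycle hold 2 of the 6 calls. PCK2, the mitochondrial phosphoenolpyruvate carboxykinase that makes phosphoenolpyruvate from oxaloacetate, has 33.7, 33.6 and 32.4 CPM in shControl and 24.1, 22.5 and 22.2 CPM in shSTBD1. The groups are far apart relative to their spread. The change of -31.1% is the largest in size among the 36 genes (log2 fold change -0.54, standard error 0.057, edgeR adjusted p = 6.72e-06) and is called in 16 of 16 other fits. No other annotated exon overlaps PCK2, which spans chr14:24094053-24110598 (GRCh38, plus strand), and its cytosolic counterpart PCK1 has 2 counts in 1 library and 0 in the others.

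ME2, the mitochondrial NAD-dependent malic enzyme that makes pyruvate from malate, has 84.2, 89.4 and 87.8 CPM in shControl and 100.1, 93.4 and 98.0 CPM in shSTBD1. All shSTBD1 libraries are higher, by 11.4% on average (log2 fold change 0.16, standard error 0.039, edgeR adjusted p = 0.0124). The call holds in 12 of 16 other fits. It is lost with effective length as an offset (edgeR adjusted p = 0.146) and with limma on log2(TPM + 1) (adjusted p = 0.263). Without shSTBD1 replicate 1 or 3 the edgeR adjusted p is 0.0771 or 0.0571. ME1, its cytosolic NADP-dependent counterpart, has a log2 fold change of 0.073 (edgeR adjusted p = 0.233). PC, pyruvate carboxylase, is at 16.4 ± 0.64 and 14.6 ± 0.77 CPM (log2 fold change -0.17, edgeR adjusted p = 0.127). Its exons overlap those of LRFN4 on the opposite strand, itself at 50.7 and 42.9 CPM (edgeR adjusted p = 0.00132).

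From citrate to 2-oxoglutarate, 1 of 7 genes is called. IDH2, the mitochondrial NADP-dependent isocitrate dehydrogenase, has 58.3, 55.1 and 52.1 CPM in shControl and 65.8, 66.7 and 64.8 CPM in shSTBD1, and no other annotated exon overlaps it. The shSTBD1 libraries lie closely together above the more scattered shControl libraries (log2 fold change 0.25, standard error 0.046, edgeR adjusted p = 0.00123). The call holds in 14 of 16 other fits and misses the threshold when limma is run on log2(TPM + 1) (adjusted p = 0.079) and when effective length is an offset (edgeR adjusted p = 0.0609). The subunits of the NAD-dependent isocitrate dehydrogenase have estimates of 0.057 for IDH3A, 0.066 for IDH3B and 0.13 for IDH3G, with edgeR adjusted p of 0.332, 0.228 and 0.0996. In each of the 3 subunit genes every shSTBD1 library is above every shControl library, as in 17.4% of all tested genes. CS, citrate synthase, is at 318.3 ± 3.49 and 310.3 ± 3.70 CPM, and ACO1, the cytosolic aconitase, and IDH1, the cytosolic isocitrate dehydrogenase, have log2 fold changes of -0.00063 and 0.026.

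From 2-oxoglutarate to succinate, 0 of 5 genes are called in edgeR, and 1 has an unadjusted p under 0.05. DESeq2 and limma call 0 of them. That gene is SUCLG2, the GTP-forming subunit of succinyl-CoA ligase, with 74.7, 74.2 and 72.2 CPM in shControl and 72.7, 64.9 and 67.0 CPM in shSTBD1. Its groups overlap (log2 fold change -0.11, standard error 0.045, edgeR adjusted p = 0.095). Without shSTBD1 replicate 1 its edgeR adjusted p is 0.0347. SUCLA2, the ATP-forming subunit, has an estimate of -0.071, SUCLG1, the subunit common to both forms, one of 0.074, and OGDH and DLST of the 2-oxoglutarate dehydrogenase complex 0.022 and -0.053, with edgeR adjusted p from 0.279 to 0.779. The summed TPM of the 5 genes is 237.2 ± 3.16 in shControl and 228.6 ± 3.53 in shSTBD1, a difference of -3.63% with no overlap between the groups (-2.24% for summed CPM).

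From succinate to oxaloacetate, 1 of 7 genes is called. MDH1, the cytosolic malate dehydrogenase of the malate-aspartate shuttle, has 169.0, 181.0 and 186.1 CPM in shControl and 223.8, 210.7 and 216.2 CPM in shSTBD1. The lowest shSTBD1 library is above the highest shControl library, and the gene rises by 21.4% (log2 fold change 0.28, standard error 0.038, edgeR adjusted p = 9.9e-05). The call holds in 15 of 16 other fits and just misses the threshold with limma on log2(TPM + 1) (adjusted p = 0.0524). MDH1 spans chr2:63588609-63607197 (GRCh38, plus strand) and shares exon bases with WDPCP on the opposite strand, which is at 2.51 CPM in shControl and 2.53 CPM in shSTBD1. MDH2, the mitochondrial enzyme of the cycle itself, is at 235.7 ± 9.78 and 242.0 ± 2.58 CPM (log2 fold change 0.038, edgeR adjusted p = 0.505).

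Among the other genes of this stretch, SDHB, the iron-sulfur subunit of succinate dehydrogenase, has 85.2, 90.1 and 90.5 CPM in shControl and 94.4, 94.6 and 98.6 CPM in shSTBD1. The groups do not overlap, yet the difference just misses the threshold (log2 fold change 0.11, standard error 0.038, edgeR adjusted p = 0.0539). The flavoprotein subunit SDHA and the membrane anchors SDHC and SDHD have estimates of -0.032, -0.022 and -0.018 (edgeR adjusted p from 0.585 to 0.824). FH, fumarase, has one of 0.085 (edgeR adjusted p = 0.164). The summed TPM of the 7 genes is 848.7 ± 38.5 in shControl and 893.9 ± 3.05 in shSTBD1, 5.32% higher with no overlap. Without shControl replicate 1, whose sum is 804.6 TPM against 875.2 and 866.4 in the other shControl libraries, the difference is 2.65%. Most of the 5.32% comes from MDH1 alone, at 169.0 ± 8.92 TPM in shControl and 202.2 ± 7.77 TPM in shSTBD1.

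All 3 genes that join the cycle to glutamate and aspartate have groups that do not overlap, as do 33.6% of all tested genes, and 1 of them is called. GLUD1, the mitochondrial glutamate dehydrogenase that makes 2-oxoglutarate from glutamate, has 201.4, 196.9 and 206.5 CPM in shControl and 163.0, 164.6 and 165.7 CPM in shSTBD1. Both groups are tight and far apart. The change of -18.4% (log2 fold change -0.29, standard error 0.032, edgeR adjusted p = 7.99e-06) is called in 16 of 16 other fits. GLUD1 spans chr10:87050202-87094843 (GRCh38, minus strand) and shares exon bases with SHLD2 on the opposite strand, which is at 72.2 ± 2.38 and 69.8 ± 2.31 CPM (edgeR adjusted p = 0.476). Its near-identical paralog GLUD2 has 1 to 9 counts in a library, and the posterior standard deviation that RSEM gives for reads shared between genes is 0.0363% of the GLUD1 count.

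The aspartate transaminases differ in sign. Cytosolic GOT1 has 91.5, 87.4 and 87.9 CPM in shControl and 96.2, 95.2 and 95.0 CPM in shSTBD1 (log2 fold change 0.10, standard error 0.036, edgeR adjusted p = 0.0625). Mitochondrial GOT2 has 202.9, 195.8 and 190.9 CPM in shControl and 186.6, 182.7 and 184.0 CPM in shSTBD1 (log2 fold change -0.092, standard error 0.033, edgeR adjusted p = 0.0669). Neither passes the threshold in this fit, though GOT1 is called in 2 of 16 other fits and GOT2 in 1. The summed TPM of GLUD1, GOT1 and GOT2 is 267.1 ± 3.22 in shControl and 247.7 ± 4.64 in shSTBD1, a difference of -7.26%, and the groups do not overlap. Most of this difference comes from GLUD1, at 86.1 TPM in shControl and 69.9 TPM in shSTBD1. GOT2 goes from 106.2 to 98.6 TPM, and GOT1 goes the other way, from 74.8 to 79.1 TPM.

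**Figure D3:**
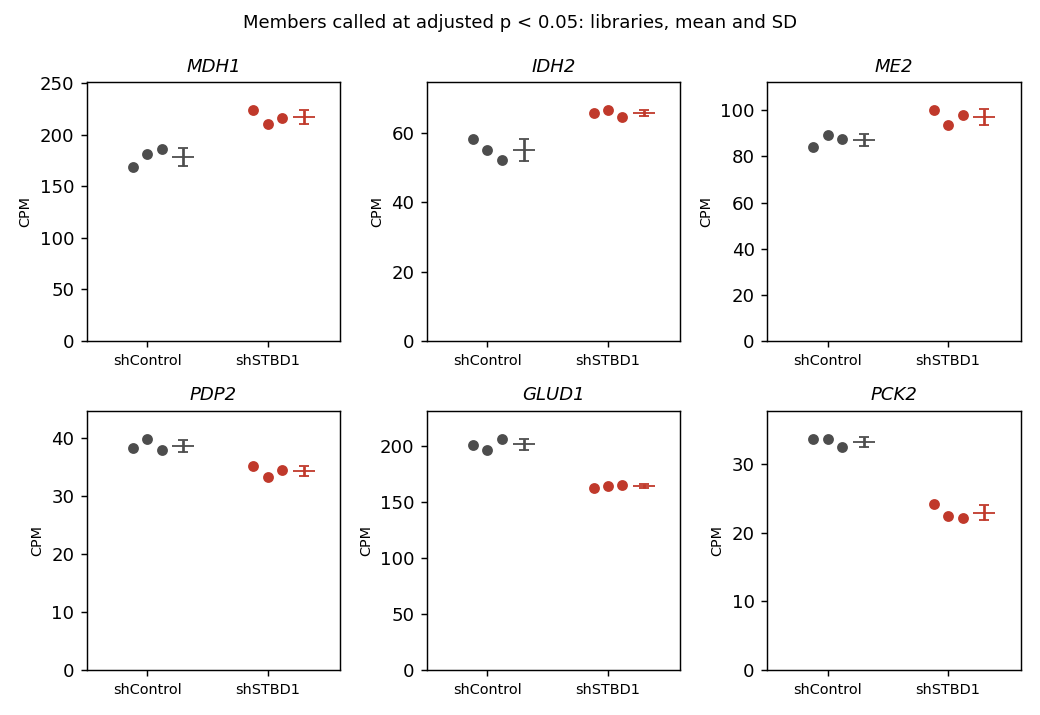
Each panel plots the CPM of 1 called gene in the 3 shControl (grey) and 3 shSTBD1 (red) libraries, on an axis that starts at 0, with the group mean and SD beside the points. In all 6 panels the groups do not overlap, and the gap is widest in proportion for PCK2, whose libraries lie at 32.4 to 33.7 CPM and at 22.2 to 24.1 CPM.

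To compare genes of 1 reaction directly, the share of 1 gene in the summed TPM of a pair is taken in every library. MDH1 makes up 47.8, 46.1 and 48.2% of MDH1 plus MDH2 in shControl and 52.7, 50.2 and 51.2% in shSTBD1, below 50% in every shControl library and above it in every shSTBD1 library. IDH1, also cytosolic, makes up 56.6, 58.6 and 60.3% of IDH1 plus IDH2 in shControl and 54.2, 54.1 and 54.4% in shSTBD1. GOT1 makes up 40.9, 41.3 and 41.9% of GOT1 plus GOT2 in shControl and 44.2, 44.2 and 45.2% in shSTBD1. In these 3 pairs the groups do not overlap, with differences of 3.98, -4.25 and 3.16 percentage points, so the cytosolic share is higher in shSTBD1 for MDH1 and GOT1 and lower for IDH1. The exact permutation test gives p = 0.1 for each (two-sided, 3 against 3 libraries), the smallest it can give, and 0.2 after Benjamini-Hochberg adjustment over the 6 pairs.

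The other 3 pairs overlap between groups. ME1 makes up 41.8 ± 0.48% of ME1 plus ME2 in shControl and 40.5 ± 0.99% in shSTBD1. SUCLG2 makes up 51.8 ± 1.02% of SUCLG2 plus SUCLA2 in shControl and 50.8 ± 1.47% in shSTBD1. PDP1 makes up 96.9 ± 0.27% of PDP1 plus PDP2 in shControl and 97.4 ± 0.24% in shSTBD1. The exact permutation p for these pairs is 0.2, 0.4 and 0.2 (two-sided).

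**Figure D4:**
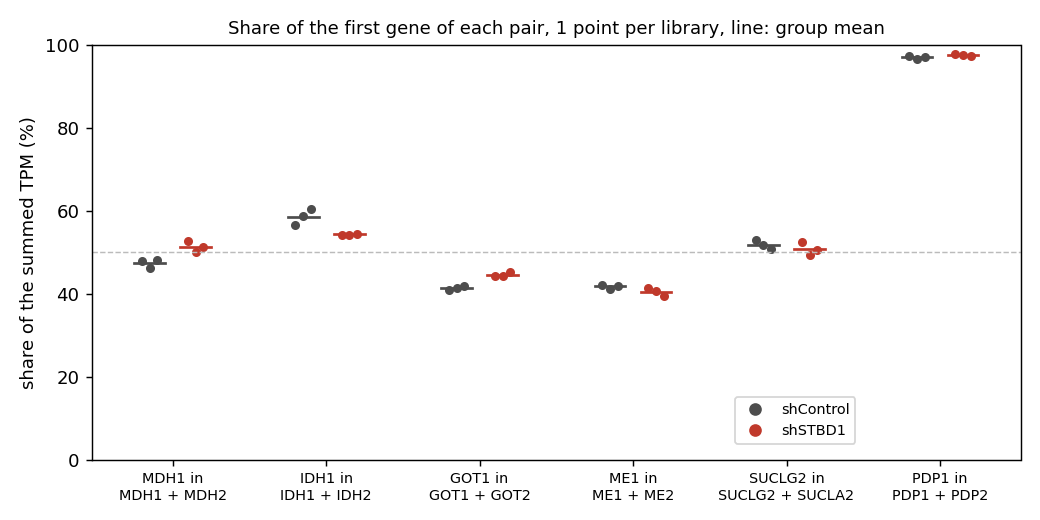
The vertical axis is the share of the first gene in the summed TPM of each pair in percent, with 1 point per library, a line at each group mean and a dashed line at 50%. The shares of MDH1, IDH1 and GOT1 do not overlap between shControl (grey) and shSTBD1 (red), and the mean share of MDH1 is 47.4% and 51.4%.

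A second list holds 41 other genes of the pathway, covering the remaining enzymes of the cycle and of pyruvate control, cofactor supply, succinate dehydrogenase assembly, mitochondrial carriers, enzymes of citrate, glutamine and alanine, and enzymes of 2-hydroxyglutarate and NADPH. Of these, 33 are tested and 9 are called (27.3%, against 15.8% of all tested genes), with 7 higher and 2 lower in shSTBD1. The change of SLC25A1, the carrier that exports citrate from mitochondria, is the largest among the called genes. It has 56.3, 55.9 and 58.8 CPM in shControl and 89.3, 91.1 and 92.0 CPM in shSTBD1, which is 59.5% higher (log2 fold change 0.67, standard error 0.039, edgeR adjusted p = 1.29e-08, called in 16 of 16 other fits). ACLY, the cytosolic enzyme that splits the exported citrate, is at 416.7 ± 10.7 and 421.9 ± 12.6 CPM (edgeR adjusted p = 0.768).

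The 3' UTR of SLC25A1 holds GTGTCAC, 7 bases that also occur in the shControl hairpin. In the hairpin these 7 bases are followed by GT, as they are in SLC25A1, so the shared stretch is longer than the marked site. The site is shown because SLC25A1 has the largest change among the called genes of this list. It is found in the 3' UTR of 1271 tested genes, of which 18.6% are called higher and 8.42% lower in shSTBD1, against 8.48% and 8.56% of the 11689 tested genes without it. It starts at base 263 of the 549 bases of the 3' UTR, at chr22:19175861-19175867 (GRCh38, minus strand, GENCODE canonical transcript), and the capitals below mark it within its flanks.
SLC25A1: ttcatgttctGTGTCACgtgaccctgt
The part of this site in the level of SLC25A1 was not tested. None of the 36 genes carries it in the canonical 3' UTR. No other stretch of the shControl hairpin and no stretch of the shSTBD1 hairpin was searched for. Genes with and without the site were not matched for 3' UTR length.

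Of the other called genes, those for pyruvate dehydrogenase control and 2-oxoadipate oxidation are higher. PDK3, a pyruvate dehydrogenase kinase, has 12.6, 11.5 and 10.7 CPM in shControl and 14.1, 16.1 and 14.1 CPM in shSTBD1 (log2 fold change 0.35, edgeR adjusted p = 0.0125). The call holds in 12 of 16 other fits, and without shControl replicate 3 or shSTBD1 replicate 2 the edgeR adjusted p is 0.0558 or 0.0865. DHTKD1, a dehydrogenase of the 2-oxoadipate complex, goes from 29.6 ± 2.20 to 33.9 ± 1.64 CPM (log2 fold change 0.19, edgeR adjusted p = 0.045). This call holds in 7 of 16 other fits and is lost with DESeq2 (adjusted p = 0.0967), with the replicate number as a block (edgeR adjusted p = 0.0553) and without any 1 library other than shControl replicate 2 (edgeR adjusted p from 0.0528 to 0.171). Its estimate is 0.070 when effective length is an offset (edgeR adjusted p = 0.874) and 0.065 with limma on log2(TPM + 1) (adjusted p = 0.882). PDK1, another of the kinases, just misses the threshold at a log2 fold change of 0.16 (edgeR adjusted p = 0.0522).

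On the glutamine and glutamate side, calls go in both directions. The mitochondrial glutamate carrier SLC25A22 goes from 86.2 ± 6.14 to 100.1 ± 5.09 CPM (log2 fold change 0.22, edgeR adjusted p = 0.00735, called in 12 of 16 other fits). Without shSTBD1 replicate 1 or 2 its edgeR adjusted p is 0.058 or 0.0503. GLUL, glutamine synthetase, falls from 171.1 ± 6.18 to 151.1 ± 2.31 CPM (log2 fold change -0.18, edgeR adjusted p = 0.00191, called in 14 of 16 other fits), and GPT2, the mitochondrial alanine transaminase, from 60.6 ± 2.62 to 53.7 ± 3.13 CPM (log2 fold change -0.17, edgeR adjusted p = 0.026, called in 9 of 16 other fits). The call of GPT2 is lost with library size alone (edgeR adjusted p = 0.0538) and without shControl replicate 2 or 3 or shSTBD1 replicate 1 or 3 (edgeR adjusted p from 0.0818 to 0.143). Its estimate is -0.083 when effective length is an offset (edgeR adjusted p = 0.59) and -0.089 with limma on log2(TPM + 1) (adjusted p = 0.568). No gene for succinate dehydrogenase assembly is called in edgeR (0 of 4, with 0 at an unadjusted p under 0.05 and 0 called by DESeq2 or limma). Of the 33 tested genes, 1 is called when effective length is an offset and 1 when limma is run on log2(TPM + 1), which is SLC25A1 in both.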

How the data were processed

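RNA-seq of 3 shControl and 3 shSTBD1 HCT116 libraries is analysed. Per the study's methods and the submitters' processing notes, the authors trim paired-end reads, align them to hg38 (Ensembl release 93) with STAR 2.7.1a and estimate abundance with RSEM 1.3.1. The deposited expected counts split reads shared between genes, so 19.9 to 20.4% of the values above 0 are not whole, and they are rounded here. The deposited TPM values are transcript abundances scaled for effective length to a constant total per library. The strand setting of the counting is not given in the sources used here, and 17 of the 36 genes share exon bases with a gene on the opposite strand.

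The members and lists are chosen with earlier results of these data known. Named genes are STBD1, all 36 members, the markers and, from the second list, the called genes plus PDK1 and ACLY; some genes that this rule names are not reported here. PCK1, GLUD2, NNT, PDHA2 and SLC19A3 of that list, and the genes whose exons overlap a member or STBD1, are named outside the rule, after their values were seen. Counts are filtered with filterByExpr, scaled by TMM (factors 0.979 to 1.009) and tested by edgeR 4.0.16's quasi-likelihood F-test (R 4.3.3) with Benjamini-Hochberg adjustment over 15566 genes and a threshold of 0.05. Standard errors come from the fold change and its F statistic. The common biological coefficient of variation is 3.37%, and p-values measure the spread between these libraries, whose separate origin is known from the label alone. DESeq2 1.42.0, limma 3.58.1 and other scalings, filters and length offsets are alternatives, with each library left out in turn. On data simulated for this comparison over 15566 genes, edgeR recovers 50% of changes of 0.25 and 69% of changes of 0.5 on the log2 scale, with 5.56% false calls. The simulation changes a small part of all tested genes, drawn at random, and edgeR calls 126 there against 2453 in the data. These shares therefore do not give the recovery for the 36 genes, which are more deeply counted. Gene positions and 3' UTRs are those of GENCODE 44 on GRCh38, matched by gene identifier.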

Additional observations from a re-analysis of the deposited data

How the results depend on the processing

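Of the 36 genes, 6 are called in the edgeR fit, 3 with effective length offsets, 2 with limma on log2(TPM + 1), 3 at an unadjusted p under 1e-5 and 4 to 8 with 1 library left out. All genes called number 2453, and 511, 292, 371 and 1409 to 2577 under the same settings. The second list has 9 calls, 1 with effective length offsets, 1 with limma and 4 to 8 with 1 library left out, the fewest without shSTBD1 replicate 1 (4) or 2 (5). PDHA1, SDHB and GOT1, not called in the edgeR fit, are called in 2 of 16 other fits each. MPC2, SUCLG2 and GOT2 are called in 1 other fit each, and PDK1 of the second list in 4. STBD1 stands at -0.541 on the log2 scale in limma on log2(TPM + 1) (adjusted p = 0.0646). Summed levels in CPM in place of TPM differ by 4.94% for the pyruvate carrier (0.288% in TPM), 1.05% for the side reactions (-3.66% in TPM) and -8.78% for glutamate and aspartate (-7.26% in TPM). The cause of these shifts was not tested. With 1 library left out (added once the values were known), the difference of the summed TPM runs from -0.989 to 1.48% over all 36 genes and from 2.65 to 6.99% from succinate to oxaloacetate.

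Signs turn only for genes that are not called. With effective length offsets and with limma, PDHA1 is 0.0456 and 0.0358, PDP1 -0.0188 and -0.0289, OGDH -0.00386 and -0.0153, SDHC 0.0377 and 0.0258, and ACLY -0.00977 and -0.0199. PDP1 is -0.000194 with DESeq2 and -0.000198 with its size factors in edgeR. ACO1 is 0.00994 with library size alone, 0.000556 with no filter, 0.0236 with gene length trend offsets, 0.000415 with the replicate block and 0.0245 with both. With 1 library left out, DLAT runs from -0.0465 to 0.0012, PDHX from -0.0073 to 0.0565, PDP1 from -0.0076 to 0.0102, PDK2 from -0.0324 to 0.0652, ACO1 from -0.0194 to 0.0242, OGDH from -0.0122 to 0.0526 and SDHD from -0.0692 to 0.0126.

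Same-numbered libraries correlate in their deviations from the group means at r = 0.0708, 0.0676 and -0.00841, and replicate 3 does not correlate best with its own number, so the numbers are not taken to pair the libraries. With the replicate number as a block, 7 of the 36 genes and 2579 of all genes are called, SDHB being added (edgeR adjusted p = 0.0431).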

Other observations

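PC, pyruvate carboxylase, has an effective length that differs 1.91-fold between libraries, from 1210 bases in shControl replicate 3 to 2315 bases in shControl replicate 2, the widest such range among the 36 genes. Its level is therefore close between libraries in CPM (15.9, 17.2 and 16.3 in shControl, 14.2, 15.4 and 14.1 in shSTBD1) and scattered in TPM (12.2, 8.65 and 15.4 in shControl, 9.88, 10.6 and 6.95 in shSTBD1), and the groups overlap in TPM alone.

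NNT, the mitochondrial transhydrogenase that makes NADPH, has 2 counts over all 6 libraries. PDHA2 and SLC19A3 have 0 counts in every library.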
